A study of Mus musculus with 6 samples.

Results

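Differences between T cell acute lymphoblastic leukemia (T-ALL) and normal spleen that were common to 3 sorted fractions, labelled as macrophages, were measured by RNA sequencing. All 6 of the 6 libraries of the series entered, 1 for each of 3 sort gates and 2 states, and T-ALL was compared with normal within each gate. The gates are defined by Ly6c, a surface antigen of monocytes, and F4/80, a surface antigen of macrophages, and are named Ly6chiF4/80lo, Ly6cloF4/80lo and Ly6cloF4/80hi. Values are given in that order of gates throughout. All mice were C57BL/6 and 6 to 8 weeks old, and none was irradiated. The T-ALL libraries came from spleens 15 days after transplantation of 1000000 GFP+ leukemia cells per mouse, taken from leukemic mice, and transplanted mice survived for 35 to 40 days. The normal libraries are labelled as control and correspond to day 0. The sources used here do not give the oncogene of the leukemia, the number of mice behind a library, or whether GFP+ cells were kept out of the gates.

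Macrophages of the spleen take up dying blood cells, recycle their iron and screen the blood for particles. Most resident macrophages divide rarely, whereas blood cell precursors, which can settle in the spleen under stress, divide often. A cell that enters division first makes nucleotides and replication factors under the control of E2F transcription factors, then mitotic regulators under the MuvB and FOXM1 complexes. Immediate early genes work on another time scale: their transcripts appear within minutes of a stimulus or of tissue handling, and many encode feedback inhibitors that shut the signal down.

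The gate labels were checked against the genes of both antigens, in FPKM (fragments scaled to transcript length and to mapped reads). Ly6c2, which encodes a Ly6c antigen, was highest in the Ly6chiF4/80lo gate of each state (482, 19.9 and 11.8 against 1405, 21.4 and 19.8 FPKM, normal against T-ALL). Adgre1, which encodes F4/80, was highest in the Ly6cloF4/80hi gate of each state (86.6, 86.7 and 529 against 47.3, 74.7 and 234 FPKM). Neither passed the test between states described below (log2 0.78, adjusted p = 0.0998 for Ly6c2, and log2 -0.75, adjusted p = 0.0662 for Adgre1). Ly6c2 passed without T-ALL Ly6cloF4/80lo (adjusted p = 0.049), and Adgre1 without normal or T-ALL Ly6cloF4/80lo (0.039 and 0.0363). Irf7, an interferon regulatory factor, was at 156, 79.5 and 151 against 90.6, 67.9 and 91.2 FPKM and did not pass (log2 -0.57, adjusted p = 0.0709). Markers of other cells were present in every gate: 14 B cell genes summed to between 1477 and 4307 FPKM, and 18 neutrophil genes to between 359 and 48047 FPKM. In T-ALL Ly6chiF4/80lo, where neutrophil genes summed to 48047 FPKM and S100a8 was the most abundant gene, 18 red pulp macrophage genes summed to 758 FPKM. In T-ALL Ly6cloF4/80hi, where Hba-a1, a globin gene, was the most abundant, erythroid genes summed to 41550.5 FPKM and red pulp macrophage genes to 8376 FPKM. In both libraries the most abundant gene and the larger of these 2 sums thus belong to a list other than that of macrophages. The lists hold genes of unlike abundance, so their sums do not rank cell types or give shares of cells. Classical monocyte genes summed to 10844 FPKM in T-ALL Ly6chiF4/80lo. Neutrophil genes also exceeded red pulp macrophage genes in normal Ly6chiF4/80lo (14401 against 1464 FPKM). B cell genes exceeded them in Ly6cloF4/80lo, at 4307 against 1313 FPKM in normal and 2940 against 740 FPKM in T-ALL. In normal Ly6cloF4/80hi red pulp macrophage genes summed to 21127 FPKM and erythroid genes to 5305 FPKM. Genes of fibroblasts summed to at most 3.28 FPKM. The low values of each file place the depth at 6685000 to 8700000 fragments per library, so that 1 FPKM of a 2 kb transcript rests on 13.4 to 17.4 fragments, and values of less than that on few counts.

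On the FPKM scale as deposited, more genes rose than fell. A gene was tested if it reached 1 FPKM in at least 2 libraries, which held for 11616 of 16058 listed genes. The test was a limma fit of log2(FPKM + 1) with gate as a block, changes are on that scale, and SE is that of the fit. At an adjusted p under 0.05, 1410 genes passed (12.1%), of which 952 rose (8.2% of all tested) and 458 fell (3.94%). All 1410 had 1 direction in all 3 pairs, as had 6723 genes (57.9%) of those tested. The genes that rose made up 7.33%, 6.98% and 5.82% of the FPKM sum in the normal libraries and 14.96%, 12.46% and 12.86% in the T-ALL libraries. Those that fell made up 4.01%, 4.15% and 10.37% in normal and 1.59%, 2.175% and 3.78% in T-ALL. The genes were chosen by their direction in these libraries, so the direction of the shares was given in advance. With erythroid and immunoglobulin genes left out and the rest rescaled, 832 genes rose and 820 fell. Scaling by median ratio gave 898 and 455, and scaling by quantiles 753 and 537. The excess of rising genes thus depends on the scale, and was nearly absent with erythroid and immunoglobulin genes left out. The labels do not say that the gates of a state came from separate mice, so the p-values measure only the spread between these fractions. The number of calls leaned on the Ly6cloF4/80hi pair, with 283 genes passing without its normal and 318 without its T-ALL library, against 886 to 923 without any other library. With each of the 6 libraries left out in turn, 249 genes always passed, 208 higher and 41 lower.

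A stricter count, with no test, asked for at least a 2-fold difference on the log2(FPKM + 1) scale, in the same direction, in every pair. It was met by 236 genes that were higher (2.03% of all tested) and 43 that were lower (0.37%) in T-ALL, and all 279 were among the genes that passed the fit. Of the higher genes 9 were past 4-fold on that scale in every pair: Ccnb1, Plk1 and Rrm2 of the dividing cell, Mpo and Ctsg of the granules of myeloid precursors, and the histone genes H3c2, H2ac4, H2ac11 and H3c15. Atf3, a stress-induced transcription factor, was the gene past 4-fold among the lower. Histone genes are near-identical copies, so the assignment of reads among them is uncertain. H2ac11 and H3c2 are listed at 0 in the 3 normal libraries, so that their place in these counts depends on the pseudocount and is no fold. Their T-ALL libraries were at 4.05, 15.8 and 17.7 FPKM and at 3.73, 7.23 and 5.03 FPKM.

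Ccnb1, the cyclin that drives entry into mitosis, rose from 9.61, 9.45 and 7.97 to 53.2, 53.8 and 75.3 FPKM, a log2 change of 2.61 (SE 0.18) at an adjusted p of 0.00832. All 3 T-ALL libraries lay above all 3 normal ones, as they did for 13.8% of all tested genes. Plk1, the mitotic polo kinase, rose from 7.99, 8.40 and 6.49 to 42.6, 41.4 and 51.2 FPKM, a log2 change of 2.42 (SE 0.17), and Cdk1, the kinase that Ccnb1 activates, from 5.08, 7.58 and 4.64 to 35.6, 31.2 and 39.7 FPKM, a log2 change of 2.45 (SE 0.21). Within a state these 3 genes stood at similar levels in all gates. Mpo, the myeloperoxidase of granules, differed between gates as well and rose from 101, 11.96 and 5.22 to 745, 149 and 32.6 FPKM, a log2 change of 2.95 (SE 0.22). Its states overlapped, because normal Ly6chiF4/80lo lay above T-ALL Ly6cloF4/80hi, while every pair was higher in T-ALL. Prtn3 and Elane, granule proteases of promyelocytes, had the same order of gates and rose by 2.54 and 2.19 (SE 0.22 and 0.30).

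**Figure D1:**
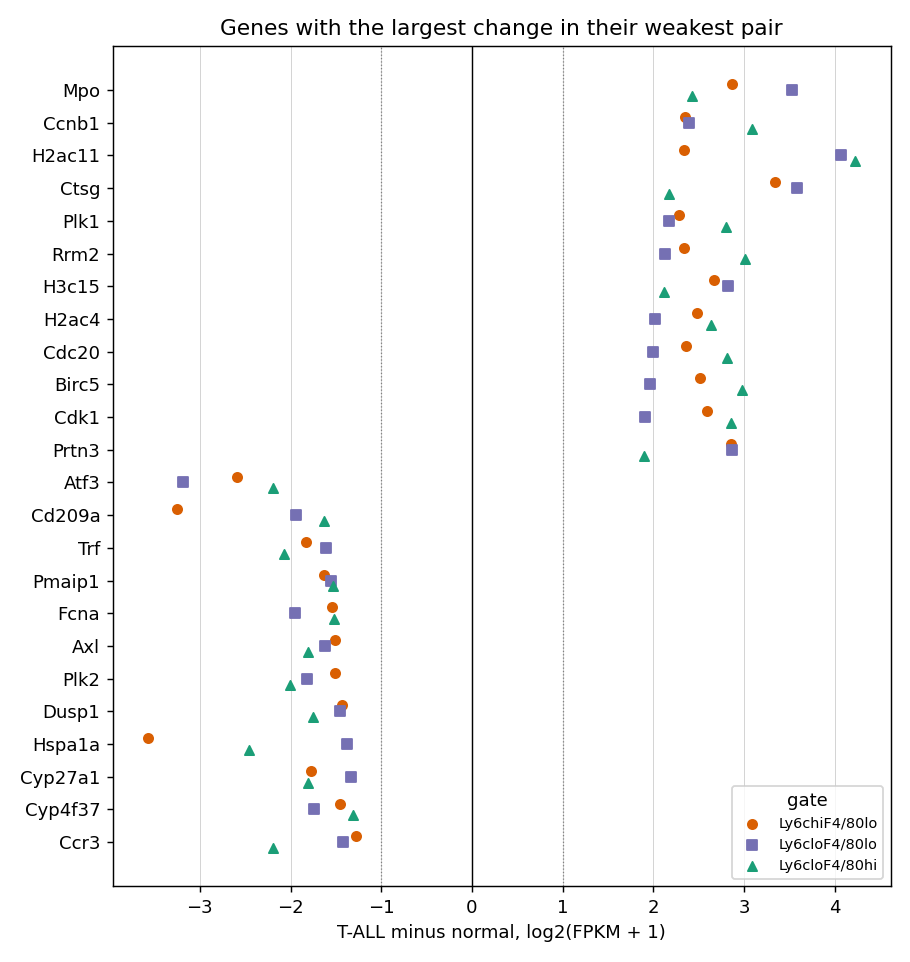
Difference between T-ALL and normal on the log2(FPKM + 1) scale (horizontal axis) for the 12 genes that rose and the 12 that fell with the largest change in their weakest pair, among genes that passed the fit and reached 10 FPKM in 1 library; each point is 1 gate and dotted lines mark a 2-fold difference. Every point lies past a dotted line, from 1.90 for Prtn3 to 3.59 for Ctsg among genes that rose, leaving out H2ac11, which is listed at 0 in normal and whose points depend on the pseudocount, and from -1.27 for Ccr3 to -3.57 for Hspa1a among those that fell.

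The promoters of the genes that changed were described by the motifs they hold. A promoter here is the RefSeq sequence (GRCm38.p6) from 250 bases before to 50 bases after a gene's start, found for 793 genes that rose, 362 that fell and 9428 tested genes, and each motif was searched on both strands. The 150 bases before the start are shown for 5 genes, each with the matches to 1 motif in capitals, because they stand for motifs of division (Cdk1, Cdc20), of amino acid shortage (Asns), of cyclic AMP signalling (Plk2) and of the macrophage factor PU.1 (Cyp4f37). Cdk1 (chr10:69352913-69353062, minus strand) holds the E2F core TTTNNCGC at -131 to -124 and -29 to -22, counted from the start. Cdc20 (chr4:118437344-118437493, minus strand), an activator of the anaphase ligase, holds the cell cycle homology region TTTGAA at -18 to -13. Asns (chr6:7693210-7693359, minus strand), the asparagine synthetase, holds the ATF4 and CEBP composite element TGATGNAA at -23 to -16. Plk2 (chr13:110394894-110395043, plus strand), a polo kinase of stress responses, holds the cyclic AMP response element TGACGTCA at -62 to -55. Cyp4f37 (chr17:32621169-32621318, plus strand), a cytochrome P450 gene, holds the PU.1 element GAGGAAGT at -120 to -113.
Cdk1: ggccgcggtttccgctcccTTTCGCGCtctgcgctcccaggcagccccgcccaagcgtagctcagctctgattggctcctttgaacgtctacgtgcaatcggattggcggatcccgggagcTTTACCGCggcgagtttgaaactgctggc
Cdc20: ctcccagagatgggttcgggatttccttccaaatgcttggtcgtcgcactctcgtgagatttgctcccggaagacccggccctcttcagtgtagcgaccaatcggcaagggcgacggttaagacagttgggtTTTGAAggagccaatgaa
Asns: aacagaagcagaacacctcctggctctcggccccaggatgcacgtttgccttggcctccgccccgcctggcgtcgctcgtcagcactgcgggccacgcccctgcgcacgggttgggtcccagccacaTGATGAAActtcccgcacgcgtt
Plk2: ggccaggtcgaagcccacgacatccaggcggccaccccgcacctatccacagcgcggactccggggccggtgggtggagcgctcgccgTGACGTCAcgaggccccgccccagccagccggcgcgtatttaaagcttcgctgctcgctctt
Cyp4f37: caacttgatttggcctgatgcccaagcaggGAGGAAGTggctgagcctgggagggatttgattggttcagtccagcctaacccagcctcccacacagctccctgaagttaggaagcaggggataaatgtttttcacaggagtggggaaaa

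The E2F core was present in 16.0% of promoters of genes that rose, 4.42% of those that fell and 8.68% of all tested genes. The cell cycle homology region was present in 21.3%, 12.98% and 12.7%, and the CCAAT box, spelled CCAAT, in 49.2%, 36.7% and 39.9%. Promoters of genes that fell held the PU.1 element in 9.12%, against 3.15% of those that rose and 3.59% of all, and the AP-1 element TGANTCA in 8.01%, against 4.16% and 5.10%. For the 6 other motifs both shares lay within 2 percentage points of that of all tested genes. Among them were the composite element of Asns (3.53% of genes that rose, 3.87% of those that fell, 2.40% of all) and the cyclic AMP response element of Plk2 (3.78%, 3.32% and 3.22%). The remaining 4 were the heat shock core GAANNTTC (7.82%, 6.91% and 5.83%), the antioxidant element TGACNNNGC, the GATA element AGATAA and the E-box CACGTG. In relative terms 2 percentage points is a wide limit for a rare motif. Matches of different motifs can share bases, and the shares are descriptions with no test.

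**Figure D2:**
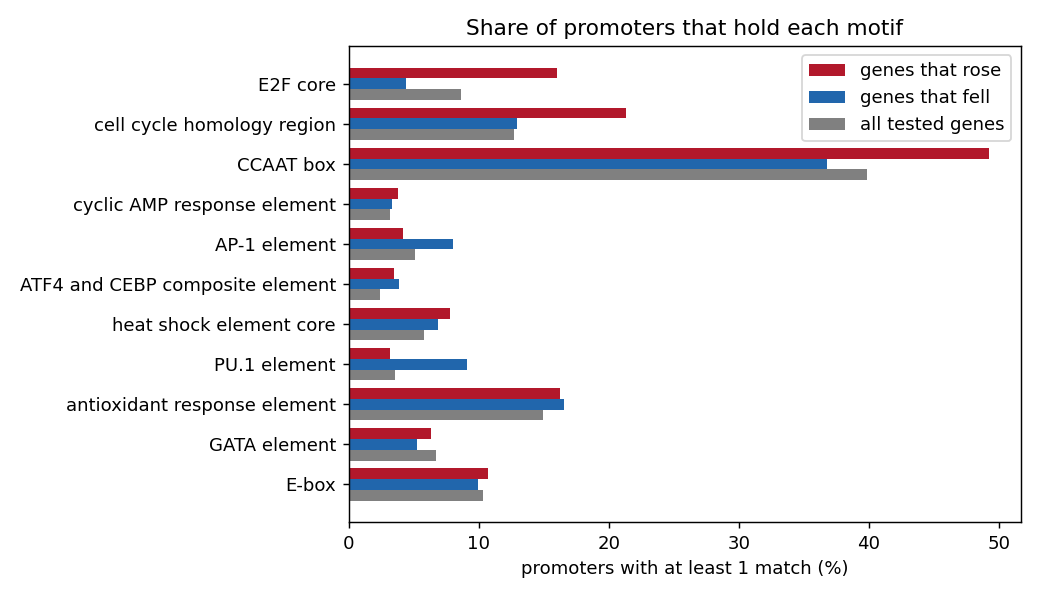
Share of promoters (%) with at least 1 match to each of 11 motifs, for genes that rose (793 promoters), genes that fell (362) and all tested genes (9428). The E2F core, the cell cycle homology region and the CCAAT box have their largest share in genes that rose, and the PU.1 and AP-1 elements in genes that fell.

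Nearly all listed genes of the kinetochore and spindle rose. Of 30 such genes 29 rose (96.7%, against 8.2% of all tested genes) and 0 fell. The list median was 1.76 on the log2 scale, against -0.03 over all tested genes. Like the other lists, this one was chosen with earlier results of these data known. Birc5, the survivin subunit of the chromosomal passenger complex, rose from 19.4, 30.1 and 21.4 to 116, 120.3 and 176 FPKM, a log2 change of 2.49 (SE 0.21). Cdc20 rose from 20.2, 19.8 and 13.1 to 108, 81.98 and 98.1 FPKM, a log2 change of 2.39 (SE 0.18), and Aurka, the centrosome kinase, from 6.64, 11.6 and 8.78 to 34.8, 36.9 and 50.4 FPKM, a log2 change of 2.07 (SE 0.19). None of these 3 overlapped between states, with T-ALL above normal as in 13.8% of all tested genes. The remaining member, Spc24 of the kinetochore, was at 94.7, 90.2 and 199 against 94.8, 106 and 108 FPKM (adjusted p = 0.544). Outside the list, Hmmr, a spindle protein, was among the most even genes, with pair ratios of 1.03, 1.12 and 1.17 and a log2 change of 1.11 (SE 0.13).

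Genes of DNA replication rose too. Of 29 licensing and fork genes 25 rose and 0 fell (median 1.49), and 15 rose without normal Ly6cloF4/80hi. Cdc6, a loader of the replicative helicase, rose from 2.93, 3.26 and 3.29 to 11.99, 19.7 and 28.5 FPKM, a log2 change of 2.26 (SE 0.22), so that the normal libraries were nearly equal and the T-ALL ones differed by gate. Mcm10 and Cdc45, which help to switch the helicase on, rose by 2.05 and 2.05 (SE 0.18 and 0.19). Of 27 nucleotide synthesis genes 18 rose and 0 fell (median 0.91), and 8 rose without normal Ly6cloF4/80hi. Rrm2, the regulated subunit of ribonucleotide reductase, rose from 27.1, 24.3 and 25.4 to 141, 110.2 and 212 FPKM, a log2 change of 2.50 (SE 0.20). Dut, which removes dUTP, Rrm1, the large reductase subunit, and Tk1, the thymidine salvage kinase, rose by 1.99, 1.84 and 1.71 (SE 0.20, 0.19 and 0.15). Tyms, the thymidylate synthase, did not pass and was at 22.3, 27.9 and 35.6 against 25.1, 38.8 and 39.1 FPKM (log2 0.25, adjusted p = 0.245).

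Repair and chromatin genes that act at and behind the fork were also higher. Of 24 genes of homologous recombination and crosslink repair 14 rose and 0 fell (median 0.84), and 6 rose without normal Ly6cloF4/80hi. Clspn, an adaptor of the replication checkpoint, rose from 0.83, 1.89 and 1.07 to 4.82, 6.93 and 8.17 FPKM, a log2 change of 1.76 (SE 0.20), and Exo1, an exonuclease, from 0.85, 1.40 and 0.95 to 3.93, 7.38 and 6.07 FPKM, a log2 change of 1.69 (SE 0.19). Neither overlapped between states, with T-ALL above normal as in 13.8% of all tested genes. Of 25 chromatin assembly and DNA methylation genes 18 rose and 0 fell (median 1.09), and 8 rose without normal Ly6cloF4/80hi. Ncaph and Ncapg, subunits of condensin, rose by 1.75 and 1.91 (SE 0.15 and 0.20), and Chaf1a, the large subunit of the histone chaperone CAF-1, by 1.73 (SE 0.23). Of 20 nuclear import and lamina genes 9 rose and 0 fell (median 0.79), and 2 rose without normal Ly6cloF4/80hi. Kpna2, an importin alpha, led them and rose from 64.9, 48.9 and 38.8 to 138, 130.3 and 132 FPKM, a log2 change of 1.40 (SE 0.17).

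The regulators of the division programme changed unevenly. Of 27 genes of the E2F and MYC network 8 rose and 1, Mycl, fell (median 0.53), and 3 rose without normal Ly6cloF4/80hi. No gene of the list fell with any library left out. Myb, a transcription factor of blood cell precursors, rose from 1.86, 3.63 and 1.80 to 6.31, 12.5 and 7.15 FPKM, a log2 change of 1.48 (SE 0.16), with pair ratios of 1.35, 1.55 and 1.54. Tfdp1, the partner of E2F proteins, and E2f8, a repressor among them, rose by 1.44 and 1.89 (SE 0.16 and 0.29). E2f1, an activator, was at 16.7, 8.26 and 18.4 against 12.7, 13.3 and 9.70 FPKM, higher in 1 pair and lower in the other 2 (adjusted p = 0.637). Myc was at 29.8, 73.3 and 73.5 against 35.8, 91.5 and 81.4 FPKM, with pair ratios of 0.26, 0.32 and 0.15 (adjusted p = 0.247). Foxm1, the mitotic activator, rose by 1.25 (SE 0.18, adjusted p = 0.0154), but did not pass without normal or T-ALL Ly6cloF4/80hi (adjusted p = 0.0565 and 0.0546).

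Genes that hold division back did not move as a group. Of 23 cell cycle brakes and p53 targets 1 rose and 3 fell (median -0.08). Pmaip1, which encodes the death promoting protein Noxa, fell from 110.2, 253 and 137 to 34.98, 85.4 and 46.5 FPKM, a log2 change of -1.57 (SE 0.14), with pair ratios of -1.63, -1.56 and -1.53. Plk2, whose promoter is shown above, fell from 11.9, 21.6 and 21.2 to 3.53, 5.38 and 4.54 FPKM, a log2 change of -1.78 (SE 0.16). In both genes every T-ALL library lay below every normal one, as in 10.9% of all tested genes. Btg2, an antiproliferative gene, fell by 1.05, and Phlda3, an inhibitor of AKT, rose by 1.05. Without normal Ly6cloF4/80hi neither passed (adjusted p = 0.116 and 0.0997). Btg2 did not pass without T-ALL Ly6cloF4/80hi (0.12) or without normal or T-ALL Ly6cloF4/80lo (0.0683 and 0.0641) either, nor Phlda3 without any of the 6 libraries (from 0.0537 without normal Ly6cloF4/80lo). Cdkn1a, the p21 inhibitor, was at 28.4, 15.7 and 7.88 against 8.03, 11.2 and 5.09 FPKM (log2 -0.90, adjusted p = 0.0716).

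**Figure D3:**
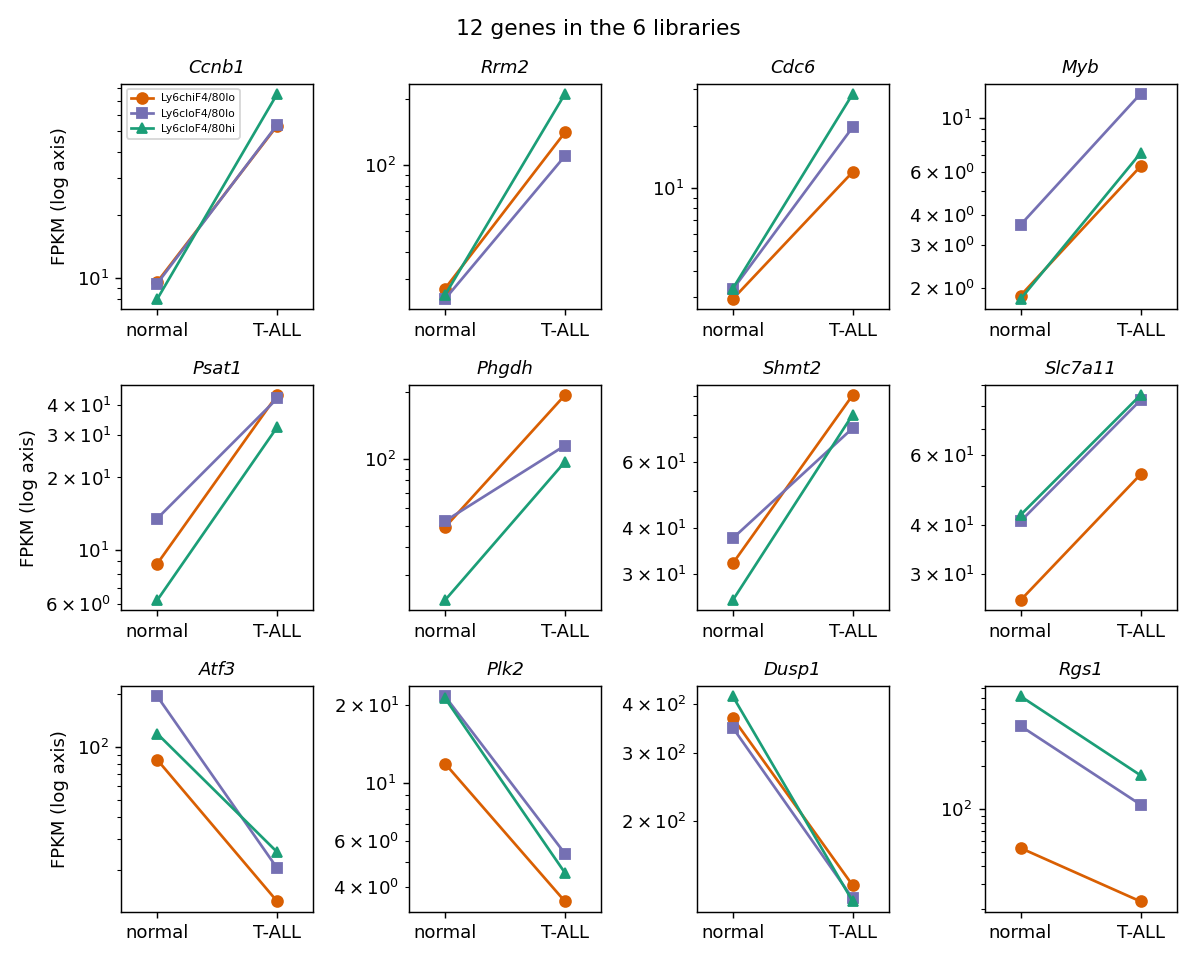
FPKM (log axis) of 12 genes in the 6 libraries; each line joins the normal and the T-ALL library of 1 gate. All lines rise for Ccnb1, Rrm2, Cdc6, Myb, Psat1, Phgdh, Shmt2 and Slc7a11 and fall for Atf3, Plk2, Dusp1 and Rgs1, and for Rgs1 the gates lie farther apart than the states.

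Enzymes that make serine, glycine and asparagine rose. Of 21 genes of the amino acid response 9 rose and 1 fell (median 0.75), and 4 rose without normal Ly6cloF4/80hi. Psat1, the transaminase of serine synthesis, rose from 8.78, 13.5 and 6.20 to 43.9, 42.5 and 32.3 FPKM, a log2 change of 1.997 (SE 0.17). Phgdh, which starts that pathway, rose from 49.2, 52.4 and 23.1 to 194, 115 and 97.02 FPKM, a log2 change of 1.701 (SE 0.21), and Shmt2, which turns serine into glycine in mitochondria, from 32.1, 37.4 and 25.6 to 90.5, 73.9 and 80.3 FPKM, a log2 change of 1.35 (SE 0.17). The states did not overlap for these 3 genes, with T-ALL above normal as in 13.8% of all tested genes. Slc7a11, the cystine importer, rose from 25.8, 40.8 and 42.4 to 53.6, 82.6 and 85.1 FPKM, a log2 change of 1.01 (SE 0.13), with nearly equal ratios in the 3 gates (1.03, 0.999 and 0.99). Asns rose from 8.29, 3.25 and 4.53 to 31.8, 45.8 and 69.95 FPKM, a log2 change of 2.99 (SE 0.36) at an adjusted p of 0.0116, and its gates were ordered differently in the states. Asns did not pass without normal or T-ALL Ly6cloF4/80lo (adjusted p = 0.0711 and 0.0609) or without normal Ly6cloF4/80hi (0.0804). Atf4 encodes the factor known to switch such enzymes on. It did not pass and was at 113, 180.2 and 141 against 184, 143 and 149 FPKM (log2 0.15, adjusted p = 0.664). Its targets Ddit3 (log2 -0.22, adjusted p = 0.263) and Trib3 (log2 0.23, adjusted p = 0.437) did not pass either. The ATF4 protein was not measured, and its part in these changes was not tested. Sesn2, another stress target, fell by 0.79 (adjusted p = 0.0266), and lost the call without either Ly6cloF4/80lo library (0.0717 for normal and 0.0685 for T-ALL) and without either Ly6cloF4/80hi library (0.116 and 0.104).

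The machinery of protein synthesis was higher by smaller amounts. All 20 cytosolic tRNA synthetases were higher in T-ALL in all 3 pairs, and 14 of them rose and 0 fell (median 0.63, with 0.58, 0.61 and 0.81 by gate). Yars, the tyrosine enzyme, rose from 24.1, 21.4 and 18.1 to 61.5, 37.8 and 40.9 FPKM, a log2 change of 1.08 (SE 0.15). Of 29 translation factors 8 rose and 0 fell (median 0.59), led by Eif1ax, an initiation factor (log2 1.10, SE 0.14). Of 26 ribosome assembly genes 9 rose and 0 fell (median 0.53), led by Npm1, a nucleolar chaperone (log2 1.18, SE 0.21). Without normal Ly6cloF4/80hi 0 members of each of these 3 lists passed, Yars, Eif1ax and Npm1 included (adjusted p = 0.061, 0.0524 and 0.118). Without T-ALL Ly6cloF4/80hi Yars and Npm1 did not pass (0.0557 and 0.102), nor did Npm1 without normal or T-ALL Ly6chiF4/80lo (0.0648 and 0.0618).

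Immediate early genes were lower in T-ALL, most of them in every gate. Of 26 such regulators 10 fell and 0 rose (median -0.82), and 20 of the 26 were lower in all 3 pairs. Atf3 fell from 84.2, 194 and 118 to 13.2, 20.3 and 25.1 FPKM. Its log2 change in the fit was -2.66 (SE 0.21) at an adjusted p of 0.00832. All T-ALL libraries lay below all normal ones, as in 10.9% of all tested genes. Junb, a subunit of AP-1, fell from 459, 629 and 597 to 202, 239 and 219 FPKM, a log2 change of -1.34 (SE 0.17), and Klf6, a zinc finger factor, from 105, 107 and 112 to 46.3, 56.2 and 45.7 FPKM, a log2 change of -1.12 (SE 0.14). Zfp36, which destabilizes cytokine transcripts, fell by 1.39 and Nr4a1, an orphan nuclear receptor, by 1.16. Without normal Ly6cloF4/80hi Junb, Zfp36, Nr4a1 and Klf6 did not pass (adjusted p = 0.0641, 0.0865, 0.081 and 0.0504), and without T-ALL Ly6cloF4/80hi the first 3 did not (0.0658, 0.089 and 0.0838). Over the list 1 to 12 genes fell with 1 library left out, fewest without normal Ly6cloF4/80hi.

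Fos, Jun and Egr1, the best known immediate early genes, did not share this fall in the Ly6chiF4/80lo gate. Fos was at 454, 414 and 432 against 545, 116 and 158 FPKM, with pair ratios of 0.26, -1.83 and -1.45, and Jun at 306, 419.6 and 650.5 against 329, 152 and 177 FPKM, with ratios of 0.10, -1.46 and -1.87. Egr1 had ratios of -0.18, -2.52 and -1.65. None of the 3 passed over all gates (adjusted p = 0.134, 0.105 and 0.0705). Without normal Ly6chiF4/80lo all 3 passed (adjusted p = 0.0254, 0.0259 and 0.0173), as they did without T-ALL Ly6chiF4/80lo (0.0259, 0.0266 and 0.0184). The difference between gates was not tested, since each has 1 pair.

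Inhibitors that end kinase signals were lower too. Of 15 MAP kinase phosphatases and related brakes 5 fell and 0 rose (median -0.53), and 3 fell without normal Ly6cloF4/80hi. Dusp1, a phosphatase of p38 and JNK, fell from 369, 348 and 419.9 to 136, 126 and 124 FPKM, a log2 change of -1.55 (SE 0.17), at almost the same level in each gate of a state. Rgs1, which shortens chemokine receptor signals, fell from 53.5, 381 and 614 to 22.7, 108 and 172 FPKM, a log2 change of -1.62 (SE 0.18), and Errfi1, an inhibitor of EGF receptors, from 6.29, 11.3 and 15.3 to 2.03, 4.53 and 5.18 FPKM, a log2 change of -1.27 (SE 0.15). Rgs1 was lower in every pair, while its gates overlapped between states. Of 20 genes of NF-kB feedback 4 fell (20.0%, against 3.94% of all tested genes) and 0 rose (median -0.36). Without normal Ly6cloF4/80hi 1 of them fell. Rel, a subunit of NF-kB, fell from 45.7, 66.8 and 39.1 to 17.1, 33.8 and 23.3 FPKM, a log2 change of -1.02 (SE 0.16). Nlrp3, the inflammasome sensor, stands in no list and was picked after its values were seen: it fell from 4.77, 9.30 and 8.86 to 1.45, 3.02 and 2.46 FPKM, a log2 change of -1.37 (SE 0.17).

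Targets of the glucocorticoid receptor and of the clock were lower in part. Of 17 glucocorticoid targets 2 rose (11.8%) and 6 fell (35.3%), with a median of -0.41. Over all tested genes 8.2% rose and 3.94% fell. Without normal Ly6cloF4/80hi 1 of the targets fell. The 2 that rose, Mt1 and Mt2, encode metallothioneins, which metals also induce. Mt1 rose from 6.31, 19.7 and 60.2 to 22.2, 87.6 and 112 FPKM, a log2 change of 1.55 (SE 0.24). Mt2 rose by 2.52 and did not pass without any of the 4 Ly6clo libraries (adjusted p = 0.163, 0.168, 0.162 and 0.0952 for normal Ly6cloF4/80lo, normal Ly6cloF4/80hi and the T-ALL libraries of the same gates). Tsc22d3, which encodes the anti-inflammatory protein GILZ, fell from 267, 279 and 190.3 to 119, 162 and 101 FPKM, a log2 change of -0.95 (SE 0.16), and Sult1a1, a sulfotransferase, from 3.02, 4.71 and 16.4 to 0.84, 0.75 and 5.19 FPKM, a log2 change of -1.44 (SE 0.19). Both lost the call without normal Ly6cloF4/80hi (adjusted p = 0.0878 and 0.0513), and Tsc22d3 also without T-ALL Ly6cloF4/80hi (0.0909) and without normal or T-ALL Ly6chiF4/80lo (0.0589 and 0.067). Fkbp5, a sensitive target, was at 1.35, 1.11 and 3.10 against 3.19, 3.71 and 2.94 FPKM (adjusted p = 0.146). Of 17 clock genes 3 fell (17.6%) and 0 rose (median -0.54), and 1 fell without normal Ly6cloF4/80lo. Ciart, a repressor of the clock, fell from 4.99, 7.37 and 8.50 to 1.31, 0.87 and 2.69 FPKM, a log2 change of -1.63 (SE 0.22). The hour of collection is not in the labels, and its part in these genes was not tested.

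Prostaglandin enzymes and cytokines changed in some members. Of 22 eicosanoid genes 1 rose (4.55%) and 4 fell (18.2%), with a median of -0.33. Over all tested genes 8.2% rose and 3.94% fell. Without normal Ly6cloF4/80hi 0 eicosanoid genes rose or fell. Ptgs2, the inducible cyclooxygenase, fell from 1.83, 6.43 and 4.08 to 0.47, 0.67 and 0.93 FPKM, a log2 change of -1.50 (SE 0.27), and Hpgd, which inactivates prostaglandins, from 176, 73.9 and 319 to 47.2, 41.2 and 140.0 FPKM, a log2 change of -1.30 (SE 0.22). Neither passed without normal Ly6cloF4/80hi (adjusted p = 0.0922 and 0.0922) or T-ALL Ly6cloF4/80hi (0.0831 and 0.0801), nor did Ptgs2 without normal or T-ALL Ly6cloF4/80lo (0.0592 and 0.0531). Of 23 cytokine genes 1 rose (4.35%) and 2 fell (8.70%). Il10, an anti-inflammatory cytokine, rose from 0.31, 1.68 and 1.53 to 7.58, 4.74 and 6.65 FPKM, a log2 change of 1.80 (SE 0.32), but did not pass without normal or T-ALL Ly6cloF4/80hi (0.106 and 0.0792). Il18, a cytokine matured by the inflammasome, fell from 23.9, 31.7 and 243 to 11.2, 14.4 and 141 FPKM, a log2 change of -0.96 (SE 0.14), and passed with each library left out. Il1b fell by 0.60 (adjusted p = 0.0498) and lost the call with any of the 6 libraries left out, from 0.0873 without T-ALL Ly6cloF4/80lo to 0.191 without normal Ly6cloF4/80hi.

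**Figure D4:**
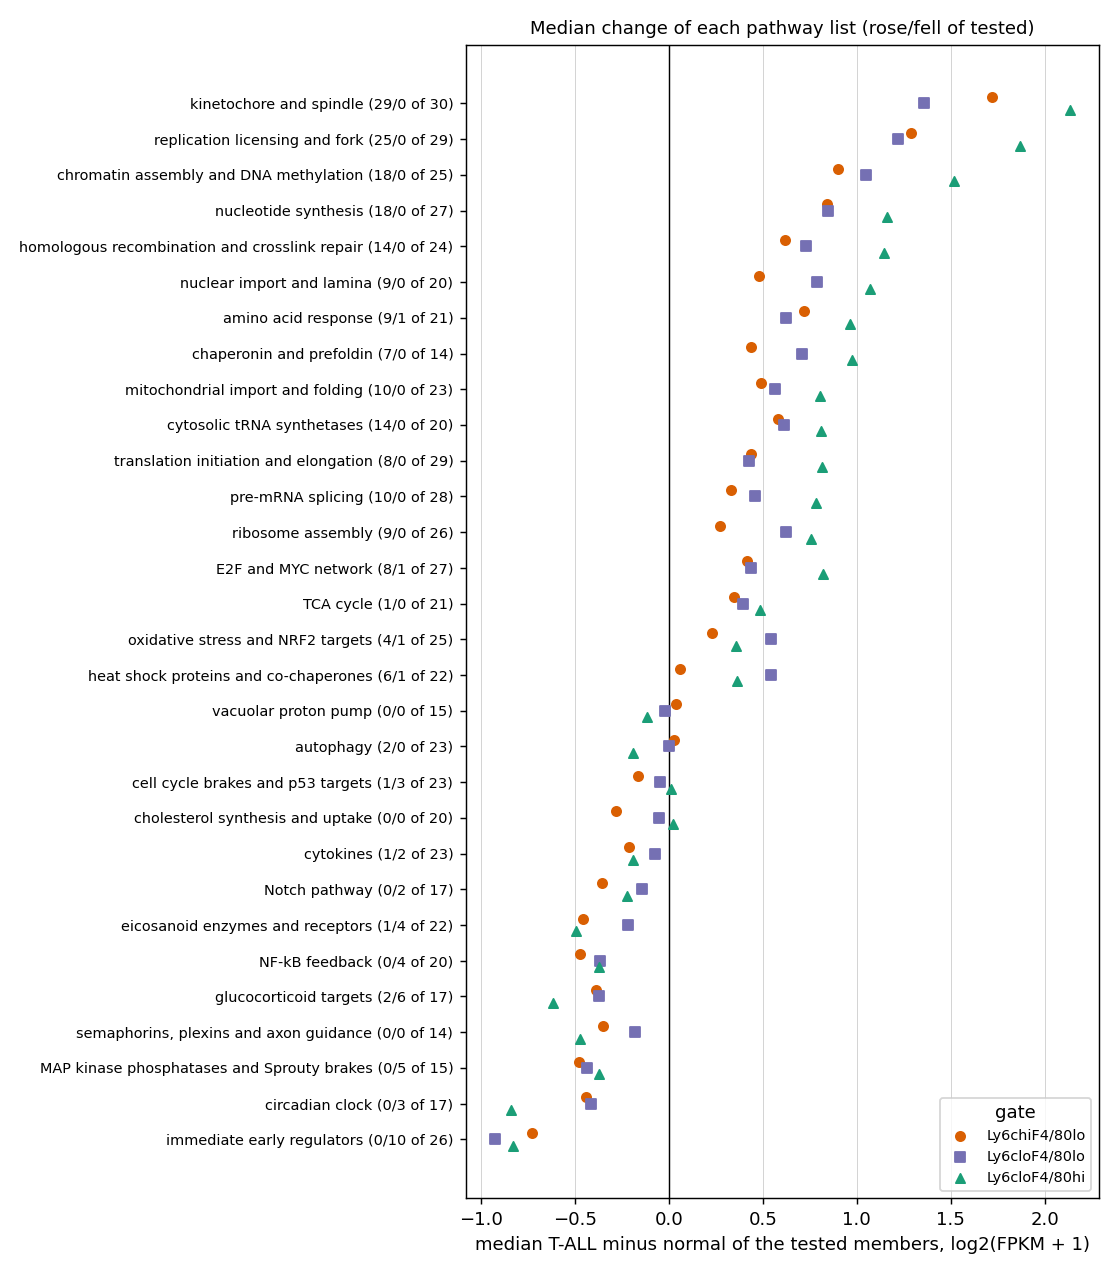
Median difference between T-ALL and normal of the tested members of 30 pathway lists, log2(FPKM + 1), with 1 point for each gate; the labels give how many rose and fell of those tested. The kinetochore list has the highest median in every gate (1.72, 1.36 and 2.13), and the immediate early list the lowest over all gates (-0.82).

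Genes of resident macrophages fell, and most were lower in every gate. Of 18 red pulp macrophage genes 13 fell and 0 rose (median -1.16, with -0.83, -1.37 and -1.41 by gate), and 5 fell without normal Ly6cloF4/80hi. Trf (transferrin, which carries iron in plasma) fell from 192, 119 and 1633 to 53.4, 38.2 and 387 FPKM, a log2 change of -1.84 (SE 0.17). Axl, a receptor for dying cells, had pair ratios of -1.51, -1.62 and -1.81, and Vcam1, an adhesion molecule, of -1.22, -1.65 and -1.54. For these 3 genes both Ly6cloF4/80hi libraries lay above the other 4, so the fall is within pairs and the states overlap. In bulk samples such as these, fewer cells of a type and less RNA per cell cannot be told apart. Of 6 marginal zone macrophage genes 4 fell (median -1.02), and 1 to 3 with 1 library left out, fewest without normal Ly6chiF4/80lo. Siglec1, the sialoadhesin of such cells, fell from 5.28, 2.57 and 31.9 to 1.58, 0.50 and 12.1 FPKM, a log2 change of -1.29 (SE 0.16), with the most even ratios of the genes past 2-fold in every pair (-1.28, -1.25 and -1.33). Cyp27a1, an oxysterol enzyme, fell from 86.8, 94.8 and 91.7 to 24.6, 36.97 and 25.5 FPKM, a log2 change of -1.64 (SE 0.15), and stood at nearly the same level in the 3 normal gates. Fcna, a ficolin, and Cd209a, a lectin of monocyte-derived dendritic cells, fell by 1.67 and 2.27 (SE 0.16 and 0.31).

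Among the genes that differed 2-fold in every pair, 86 of 236 higher and 19 of 43 lower genes are members of the lists. The genes in this paragraph are in none, and those other than Txnl1, Slc43a3 and Morf4l2 were named after their values were seen. Ppa1, a pyrophosphatase, rose from 26.1, 20.3 and 15.4 to 120.3, 75.8 and 68.9 FPKM, a log2 change of 2.03 (SE 0.14), and Srm, the spermidine synthase, from 27.7, 44.5 and 29.2 to 127, 113 and 109 FPKM, a log2 change of 1.79 (SE 0.19). The states do not overlap in either, with T-ALL above normal as in 13.8% of all tested genes. Slc43a3, a purine transporter, Txnl1, a relative of thioredoxin, and Morf4l2, a chromatin protein, were even across gates, with pair ratios of 1.59, 1.62 and 1.72, of 1.16, 1.05 and 1.06 and of 1.17, 1.03 and 1.17. On the lower side Itgad, an integrin of red pulp macrophages, fell from 12.6, 16.9 and 409 to 4.71, 5.17 and 123 FPKM, a log2 change of -1.50 (SE 0.15). C6, a late complement component, fell from 5.97, 7.93 and 187 to 2.10, 2 and 69.96 FPKM, a log2 change of -1.38 (SE 0.15), and Apol7c, an apolipoprotein L gene, from 18.6, 204 and 97.3 to 3.89, 85.9 and 33.1 FPKM, a log2 change of -1.59 (SE 0.18). All 8 genes passed with each library left out.

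Ranked by the change of mean FPKM among genes that passed the fit, other genes led. The 6 that rose were Jchain, Mzb1, H2ac24, H2ac23, Rps2 and Hsp90b1, and the 6 that fell Apoe, Hmox1, Zfp36, C1qa, Trf and Vcam1. Apoe, a lipid carrier made by macrophages, fell from 2183, 1003 and 4198 to 404, 475 and 1647 FPKM, a log2 change of -1.62 (SE 0.31), and Hsp90b1, a chaperone of the secretory pathway, rose from 698, 219 and 325 to 2134, 488 and 556 FPKM, a log2 change of 1.18 (SE 0.23). Neither passed without normal Ly6chiF4/80lo (adjusted p = 0.0917 and 0.104), T-ALL Ly6chiF4/80lo (0.107 and 0.0925), normal Ly6cloF4/80hi (0.0982 and 0.0794) or T-ALL Ly6cloF4/80hi (0.0937 and 0.072). Jchain, Mzb1, Rps2, Hmox1, Zfp36 and C1qa did not pass without normal Ly6cloF4/80hi (adjusted p = 0.134, 0.07, 0.196, 0.0864, 0.0865 and 0.0794). The remaining 4 passed with each library left out.

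The Ly6cloF4/80hi pair had 1113 genes at least 2-fold higher and 640 lower, the Ly6chiF4/80lo pair 719 and 448, and the Ly6cloF4/80lo pair 631 and 180.0. The 236 genes higher in every pair are 32.8%, 37.4% and 21.2% of those past 2-fold in Ly6chiF4/80lo, Ly6cloF4/80lo and Ly6cloF4/80hi, and the 43 lower ones 9.60%, 23.9% and 6.72%. Of the 952 genes that rose 622 had their largest change in Ly6cloF4/80hi, and 234 of the 458 that fell. Each gate and state has 1 library, so no difference between gates was tested. At the other extreme 34 genes were at least 2-fold higher in 1 pair and 2-fold lower in another. Retnlg, a resistin-like gene of neutrophils, was past 4-fold both ways, at 28.2, 7.64 and 8.82 against 234, 0.80 and 4.18 FPKM, and no other gene was.

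Markers of other cell types moved between states as well. Erythroid genes had medians of 0.34, 2.84 and 3.18 by gate, and their summed level went up from 920.1, 689 and 5305 to 963, 6551 and 41550.5 FPKM. Of 22 tested 9 rose and 0 fell. Without normal or T-ALL Ly6chiF4/80lo 21 rose, and without normal Ly6cloF4/80lo, T-ALL Ly6cloF4/80lo or normal Ly6cloF4/80hi 0 did. Plasma cell genes summed to 6378, 976 and 583 FPKM without leukemia against 16241, 2025 and 1925 FPKM with it, and 8 of 11 rose, 2 of them without normal Ly6cloF4/80hi. Derl3 and Fkbp11, secretory pathway genes of such cells, rose by 1.84 and 2.33 (SE 0.16 and 0.25). The neutrophil list had medians of 1.62, -0.83 and -0.55, and Mpo and Elane were the 2 of its 18 genes that rose. Of 11 basophil and mast cell genes 3 rose, and 0 without normal Ly6cloF4/80hi. Of 15 dendritic cell genes 4 fell, and 1 without normal Ly6cloF4/80lo. Among other lists 1 of 14 B cell, 1 of 12 natural killer cell, 1 of 12 patrolling monocyte and 2 of 12 classical monocyte genes passed. So did 3 of 9 eosinophil, 2 of 7 endothelial and 2 of 11 platelet and megakaryocyte genes. Over all tested genes 12.1% passed.

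The kinetochore list had medians of 1.72, 1.36 and 2.13 by gate, and the erythroid list of 0.34, 2.84 and 3.18. Both were highest in Ly6cloF4/80hi. The kinetochore median was lowest in Ly6cloF4/80lo and the erythroid median in Ly6chiF4/80lo. Each gate has 1 pair, so the order of gates was not tested. Genes of thymocytes and T-ALL cells had medians of -0.56, -0.26 and 0.83, and summed to 235, 252 and 268 FPKM without leukemia against 152, 177 and 245 FPKM with it. Of 20 tested 0 rose and 1, Cd4, fell by 0.88 (adjusted p = 0.0308). Cd4 did not pass without normal Ly6chiF4/80lo (0.0761), T-ALL Ly6chiF4/80lo (0.0741), normal Ly6cloF4/80lo (0.096) or T-ALL Ly6cloF4/80lo (0.0916). The thymocyte genes Rag1, Rag2 and Bcl11b stayed below the level needed for the test. Dntt, the terminal transferase of lymphoid precursors, was at 4.43, 0.49 and 0.38 against 7.31, 2.70 and 16.5 FPKM (log2 1.86, adjusted p = 0.0772). Cd34, a gene of progenitors, rose from 1.26, 1.65 and 0.48 to 9.63, 11.7 and 2.73 FPKM, a log2 change of 1.94 (SE 0.24). The part of erythroid cells, myeloid precursors, plasma cells and leukemia cells in the rise of the cell cycle genes was not tested.

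**Figure D5:**
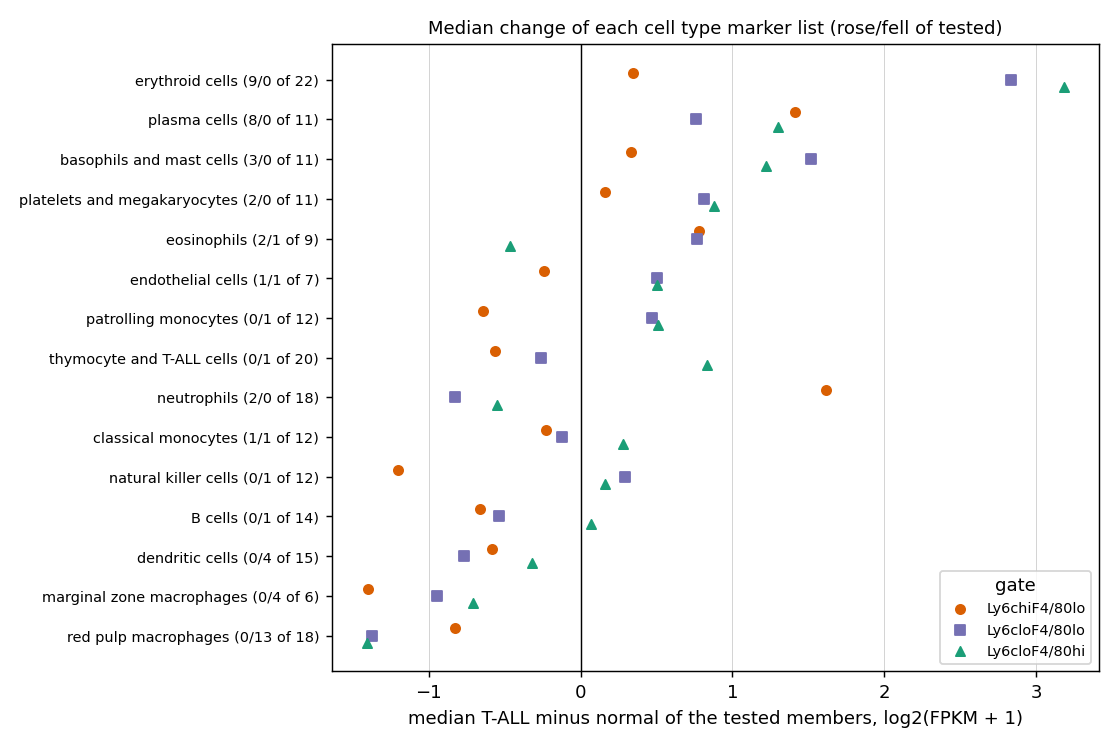
Median difference between T-ALL and normal of the tested members of 15 cell type marker lists, log2(FPKM + 1), with 1 point for each gate; the labels give how many rose and fell of those tested. The erythroid points are far apart (0.34, 2.84 and 3.18), the neutrophil points differ in sign, and those of red pulp and marginal zone macrophages all lie below 0.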

How the data were processed

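RNA of sorted spleen cells was measured in 6 libraries, 1 for each gate and state. The authors deposited FPKM per Entrez gene. The submitters' processing notes name Bowtie2 2.2.5 and RSEM, with no role stated. The sources used here give neither the build nor the annotation. A gene absent from a file was taken as 0. Names came from RefSeq (GRCm38.p6) for 16017 of 16058 identifiers (99.7%). FPKM of at least 1 in at least 2 libraries was required (11616 genes).

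Values were analysed as log2(FPKM + 1) with limma 3.58.1 (trended, robust prior from statmod 1.5.0, R 4.3.3), with gate as a block and 2 residual degrees of freedom. Tests were two-sided, with Benjamini-Hochberg adjustment over all tested genes and a threshold of 0.05. Within a gate there is 1 library per state and no test. Pairs, lists, promoters and figures used Python 3.11.15 with pandas 2.3.3 and matplotlib 3.10.9. On simulated data in this design the fit recovered 24.2%, 66.7% and 85.2% of genes changed by log2 1, 2 and 3, and 1.84% of its calls were false. The simulation changed 200 of 11616 genes, with noise drawn independently for each gene and library. Noise shared between genes was not simulated, so the share of false calls may not hold for these data.

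The 47 gene lists (937 symbols, 928 found, 849 tested) and the rules for naming genes were chosen with earlier results of these data known. By rule, named genes were the 12 rising and 12 falling with the largest change in their weakest pair, the 6 most even of those past 2-fold in every pair, the 6 with the largest change of mean FPKM each way, up to 4 members per list, genes past 4-fold both ways, and Ly6c2, Adgre1 and Irf7. Except for the last 3 and those past 4-fold both ways, these were genes that passed the fit, with at least 10 FPKM in 1 library for the weakest pair and evenness and 5 FPKM for lists. Others are named for contrast after their values were seen. Not every gene that the rules pick is reported here.

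Alternatives were a pseudocount of 0.1, no filter, a filter at a mean of 5 FPKM, scaling by median ratio or by quantiles, erythroid and immunoglobulin genes left out, no trended prior, no gate block, a threshold on a 1.5-fold change, and each library left out.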

Additional observations from a re-analysis of the deposited data

Results flagged for a closer look

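Of 221 genes followed under the alternatives, these 6 were at least 2-fold higher in T-ALL in 1 gate and at least 2-fold lower in another. The difference between gates was not tested, because each gate has 1 pair. In 4 neutrophil genes the Ly6chiF4/80lo pair was higher and the Ly6cloF4/80lo pair lower. Retnlg had pair ratios of 3.004, -2.26 and -0.92 and spanned 5.27 on the log2 scale. S100a8 and S100a9, the calprotectin subunits, had ratios of 1.89, -1.91 and -0.63 and of 1.96, -2.09 and -0.73 and spanned 3.79 and 4.05, and Ngp, a granule protein, spanned 3.26. Nupr1, a chromatin protein of the amino acid response list, had ratios of -1.41, 1.08 and 1.04, a span of 2.48. Pla2g7, a phospholipase of the eicosanoid list, had ratios of -0.46, 1.17 and -1.47, a span of 2.64.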

How the results depend on the processing

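Against 1410 calls in all, 293 higher and 77 lower (370) were made with no filter on low values, 147 and 14 (161) with no gate block, and 75 and 8 (83) with a threshold on a 1.5-fold change. With erythroid and immunoglobulin genes left out 820 genes fell. With 1 library left out 283 to 923 genes passed, 228 to 734 higher and 55 to 286 lower, fewest without normal Ly6cloF4/80hi. The count at 2-fold the same way in every pair was 483 with a pseudocount of 0.1, and 327 to 574 over the 2 pairs that remain when a library is left out. Either library of a gate left out removes that pair, and the lone one is assumed to vary like the others. Over 221 genes and 6 libraries left out in turn, 386 of 1326 fits lost a call and 17 gained one, and 0 reversed. Of the 221 genes 193 were called in the main fit, and only these could lose a call. They had 1 direction in all 3 pairs, so none of them could reverse with a library left out. Of 1962 fits under other settings 434 lost and 11 gained one, and 0 reversed. Under all 15 alternatives 53 genes kept their call, 50 higher and 3 lower (Atf3, Plk2 and Cyp27a1). A gene that a setting left out counts here as having lost its call. The filter at a mean of 5 FPKM tested 8428 genes. Values near 1 FPKM rest on few fragments. The fit pairs T-ALL with normal by gate. The labels carry no replicate numbers, so no further block could be fitted.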

Other observations

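Lists of housekeeping pathways were higher or mixed. Of 23 mitochondrial import genes 10 rose and 0 fell (median 0.64), led by Timm8a1, a chaperone between the membranes (log2 1.24), and of 28 splicing genes 10 rose and 0 fell (median 0.55), led by Lsm2 (log2 1.27). Of 14 chaperonin and prefoldin genes 7 rose and 0 fell (median 0.73). Of 22 heat shock genes 6 rose and 1, Hspa1a, fell. Hspa1a, the inducible HSP70, fell from 196, 53.4 and 56.5 to 15.6, 19.9 and 9.43 FPKM, a log2 change of -2.47 (SE 0.39), whereas Hspe1 of the mitochondrial chaperonin rose from 52.6, 101 and 70.6 to 101, 220.4 and 217 FPKM, a log2 change of 1.22 (SE 0.18). Without normal Ly6cloF4/80hi 0 mitochondrial import, 1 splicing, 0 chaperonin and 0 heat shock genes rose, and Timm8a1, Hspa1a and Hspe1 did not pass (adjusted p = 0.0529, 0.138 and 0.063). Hspa1a and Hspe1 did not pass without T-ALL Ly6cloF4/80hi either (0.0707 and 0.0547).

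Of 25 oxidative stress genes 4 rose and 1 fell (median 0.37), and 1 rose without normal Ly6cloF4/80hi. Gclm, of glutathione synthesis, rose by 1.32, while Hmox1, the heme oxygenase, fell by 1.31. Both lost the call without normal Ly6cloF4/80hi (adjusted p = 0.0643 and 0.0864) or T-ALL Ly6cloF4/80hi (0.0635 and 0.0964), and Hmox1 without normal or T-ALL Ly6cloF4/80lo (0.0632 and 0.0606). In 3 lists 0 genes passed the limma fit: 15 proton pump subunits (median 0.04), 20 cholesterol genes (median -0.10) and 14 semaphorin and plexin genes (median -0.41), of which 0, 3 and 2 were under 0.05 without adjustment. Of 23 autophagy genes 2 rose (8.70%, near the 8.2% of all tested genes) and 0 fell (median 0.01).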
